A study of Mus musculus with 6 samples.

Results

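The genes described are Casp8, Casp2 and Bcl2l1, regulators of apoptosis in mouse squamous cell carcinoma after excision of the transcription factor p63. They are 3 of 16381 entries that the authors' deposited table of changes holds, found by the exact names CASP8, CASP2 and BCL2L1. They were chosen as apoptosis regulators with clear changes in that table, where Tnfrsf12a, described further on, has a larger change and a smaller p than Casp2, so every value of that comparison given for them is a description and no evidence for their change. Tumours came from mice of mixed c57BL/6 - CD1 background with the genotype p53+/-, p63L/L; K14-CreER, which both groups shared, and were induced with weekly DMBA, a carcinogen. Disaggregated primary tumour was moved orthotopically into Nude mice, which lack a thymus, and tumours grew there for 13 days. Mice of the p63-excised group then received tamoxifen daily for 5 days, and mice of the p63-intact group received vehicle, with tumours taken 1 to 3 days after the last dose. Each group held 3 tumours, and RNA of whole tumours was hybridised to Illumina bead arrays, which read transcripts with short probes.

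The Cre recombinase and the p63L/L alleles belong to the donor tumour cells, so tamoxifen excises no p63 in cells of the Nude host. Among donor cells, the recombinase acts only in those that use the keratin 14 promoter. No group received tamoxifen without excision, so effects of the drug and of p63 loss cannot be told apart. The labels do not say that the tumours grew in separate mice or came from separate primary tumours, and p-values therefore measure only the spread between these samples. RNA of whole tumours also cannot separate fewer cells of a type from less RNA per cell. For Trp63 itself the authors' deposited table lists a log2 change of -0.25 (t = -2.22, p = 0.0639). The position of its probe relative to the excised exons is not stated in the sources used here, and the value is therefore no check of the labels. The squamous markers Krt14 and Krt5 are bright in the authors' deposited table, at mean log2 levels of 14.02 and 11.65 against a lowest listed level of 4.62.

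Apoptosis is carried out by caspases, proteases that lie idle as precursors until a complex brings them together. Casp8 encodes the initiator caspase of death receptors such as Fas and the TNF receptors: the adaptor FADD recruits it, the decoy FLIP (Cflar) restrains it, and active caspase-8 cuts executioner caspases and the BH3-only protein Bid. It also restrains necroptosis, a lytic death run by RIPK1, RIPK3 and MLKL, and mice without it in the epidermis develop skin inflammation. Casp2 encodes a caspase that is activated in the PIDDosome, a complex of PIDD1 and the adaptor CRADD, after DNA damage or surplus centrosomes. Bcl2l1 encodes BCL-XL, a survival protein of the BCL-2 family that holds the pore formers BAX and BAK in check at mitochondria. Its transcript can also be spliced to BCL-XS, a shorter form that promotes death. Casp2 and Casp8 are spliced to several forms as well. The table has a single value per gene name, so isoforms cannot be told apart.

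The stretch of 250 bases before a transcription start of each gene is shown because p63 binds DNA, and because the 3 promoters differ widely in base composition. Sequences are from RefSeq on mouse build GRCm38.p6, 5′ to 3′ on the gene's strand. The sources used here name no build for the array. Capitals mark GC boxes and near matches to the 10-base unit that is repeated in the full p53-family site, the motif bound by p53 and p63. Full sites were not searched for. For Bcl2l1 the most upstream of 3 annotated starts is shown.
Casp8, chr1:58802252-58802501, plus strand: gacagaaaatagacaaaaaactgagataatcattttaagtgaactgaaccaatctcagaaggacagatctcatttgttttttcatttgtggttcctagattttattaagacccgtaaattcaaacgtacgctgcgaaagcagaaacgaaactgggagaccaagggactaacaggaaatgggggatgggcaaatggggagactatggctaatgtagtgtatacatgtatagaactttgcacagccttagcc
Casp2, chr6:42264735-42264984, plus strand: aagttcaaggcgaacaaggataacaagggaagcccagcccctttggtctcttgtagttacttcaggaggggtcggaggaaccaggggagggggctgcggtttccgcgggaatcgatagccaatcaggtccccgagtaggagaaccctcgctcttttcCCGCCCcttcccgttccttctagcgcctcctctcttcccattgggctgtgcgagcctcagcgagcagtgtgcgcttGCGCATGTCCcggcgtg
Bcl2l1, chr2:152831729-152831978, minus strand: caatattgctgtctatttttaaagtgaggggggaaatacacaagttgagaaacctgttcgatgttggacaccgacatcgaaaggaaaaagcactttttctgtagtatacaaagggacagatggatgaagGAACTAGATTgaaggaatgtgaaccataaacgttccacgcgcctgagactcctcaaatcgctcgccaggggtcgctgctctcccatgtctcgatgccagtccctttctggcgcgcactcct

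The Casp8 stretch held 39.6% G and C, the Casp2 stretch 60.4% and the Bcl2l1 stretch 47.6%, against a median of 52.4% over 32851 annotated stretches of this length. The exact p53-family unit of 10 bases was in none of the 5 stretches of these genes, the other Bcl2l1 starts included, and 7.13% of all stretches hold it. With at most 1 mismatch outside its core of 4 bases, the Casp2 stretch held GCGCATGTCC, 17 to 8 bases before the start, and the Bcl2l1 stretch held GAACTAGATT, 121 to 112 bases before it. Of all stretches, 34.4% hold such a near match, so its presence sets neither gene apart. The GC box GGGCGG, read on both strands, was in the Casp2 stretch, as CCGCCC, and in 32.7% of all stretches. The STAT site TTCNNNGAA and the AP-1 site TGANTCA were in none of the 5 stretches, and 7.02% and 6.75% of all stretches hold them. These matches describe letters in a short window and do not show where p63 binds.

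The files do not pair probes with gene names, so named genes have no values by array here, and whether the arrays of both groups overlapped for it was not analysed here. The authors' deposited table gives for each name a log2 change, a signed fold, a mean log2 level, a moderated t, an unadjusted p and a log-odds score, for entries with p up to 0.462. The log2 change is read here as p63-excised minus p63-intact, as the table's name implies. Among the 11 entries of at least 10 in mean log2 level and at least 2-fold in change, 9 lay closer to a probe of the arrays with the sign read this way than with it turned, at a median distance of 0.17 against 0.30 log2 units. Those 11 were chosen after the same comparison over the 100 entries with the largest changes, 95 of them under that level, had shown no preference, with 49 closer this way and median distances of 0.181 against 0.162, so the sign rests on the table's name. The standard error of each change was obtained as the change over its t. The degrees of freedom implied by t and p, a median of 6.69 over 4684 entries, gave 95% intervals. Group means were implied from the mean level and the change, on the assumption that the mean level is over all 6 arrays.

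Casp8 had an implied mean of 7.58 in p63-excised tumours and 6.60 in p63-intact tumours, in log2 intensity. Its change in the authors' deposited table was 0.98 in log2, a 1.98-fold rise, with a derived error of 0.07 (SE) and a 95% interval of 0.80 to 1.16. The authors' deposited table gives it t = 13.15, p = 5.01e-06 and a log-odds score of 4.62. By p it stood at place 24 of 16381 entries, while 158 entries had a larger rise. Its mean level, 7.09, lay 2.47 log2 units above the dimmest listed entry, more than the change itself.

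Casp2 had an implied mean of 5.88 in p63-excised tumours and 6.77 in p63-intact tumours, in log2 intensity. Its change in the authors' deposited table was -0.89 in log2, a signed fold of -1.85, with a derived error of 0.10 (SE) and a 95% interval of -1.13 to -0.65. The authors' deposited table gives it t = -8.77, p = 6.58e-05 and a log-odds score of 2.39. It stood at place 102 by p, and 178 entries had a deeper fall. Casp2 was thus lower and Casp8 higher in p63-excised tumours, as described by the values that chose them.

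Bcl2l1 had an implied mean of 5.89 in p63-excised tumours and 5.33 in p63-intact tumours, in log2 intensity. Its change in the authors' deposited table was 0.56 in log2, a 1.47-fold rise, with a derived error of 0.06 (SE) and a 95% interval of 0.42 to 0.70. The authors' deposited table gives it t = 9.61, p = 3.72e-05 and a log-odds score of 2.92. It stood at place 72 by p, but 503 entries had a larger rise. Its mean level of 5.61 was 0.99 above the dimmest listed entry, the least margin of the 3 genes, and near that floor background signal can make a fold look smaller than it is. The rise of this survival gene had the smallest deposited value of the 3 changes, and differences between the genes were not tested.

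**Figure D1:**
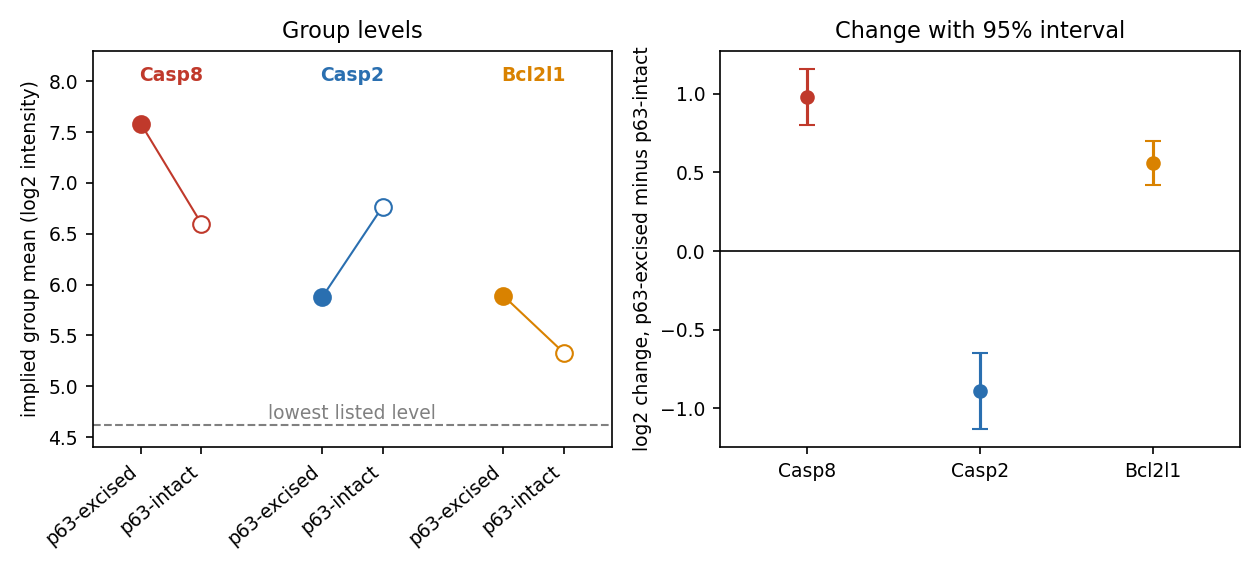
The left panel shows the implied group means of Casp8, Casp2 and Bcl2l1 in log2 intensity, filled for p63-excised and open for p63-intact tumours, with a dashed line at the lowest listed level of 4.62. Heights compare groups within a gene, not genes with each other. The right panel shows the log2 changes with 95% intervals: Casp8 at 0.98 and Bcl2l1 at 0.56 lie above 0 and Casp2 at -0.89 below it.

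After Benjamini-Hochberg adjustment of the authors' deposited p-values, with all 45281 probes of the array taken as tests, the 3 genes had adjusted p-values of 0.00945 for Casp8, 0.0231 for Bcl2l1 and 0.0292 for Casp2. Of all listed entries 1.16% passed at 0.05, 0.659% higher and 0.501% lower, and 2.97% passed with the listed entries taken as the only tests. Because the genes were chosen on this comparison, nothing is read from that share. The 190 entries that passed in the authors' deposited table had a median absolute log2 change of 0.98 and a median derived error of 0.11, and 91 of them changed at least 2-fold. None of the 3 genes reached 2-fold. Of these 190 entries, 94 had a smaller absolute change than Casp8, 81 a smaller one than Casp2 and 23 a smaller one than Bcl2l1. A smaller error than that of Bcl2l1 was found for 14 of them, against 46 for Casp8 and 88 for Casp2. Bcl2l1 thus passed with a small change and a small derived error, and so small a change can pass only with a small error. Its mean level is dim, and the part of that in the small error was not tested. Casp2 had a change and an error near the middle of the entries that passed.

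**Figure D2:**
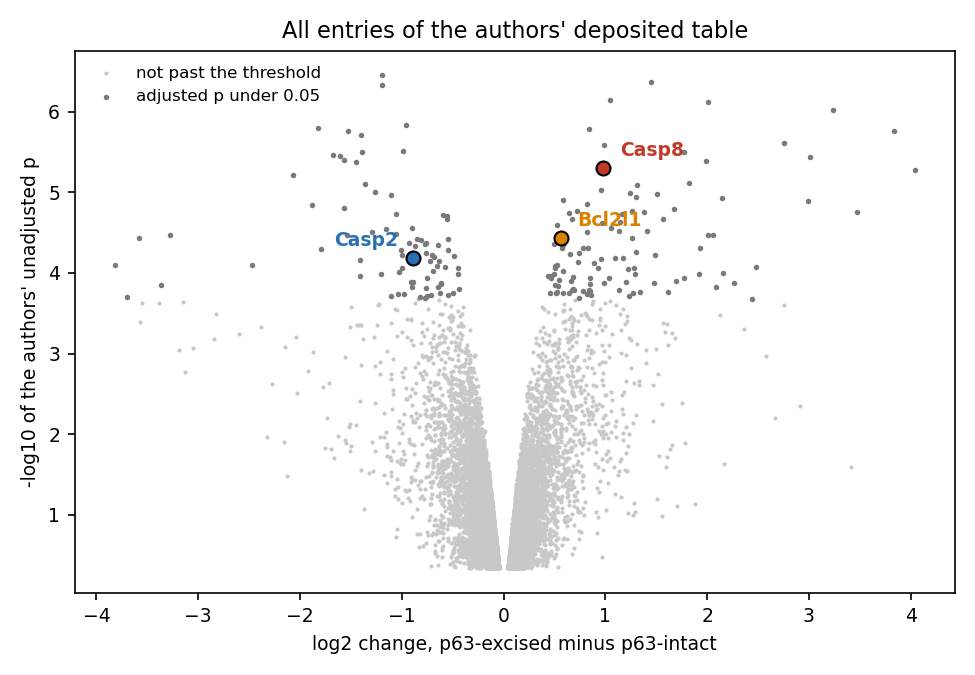
Each point is an entry of the authors' deposited table, with the log2 change on the horizontal axis and -log10 of the unadjusted p on the vertical axis, dark where the adjusted p is under 0.05. Casp8 lies high among the rises at a change of 0.98, Bcl2l1 at 0.56 lies near the inner edge of the entries that passed, and Casp2 lies among the falls at -0.89.

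The wider apoptosis machinery was described through 10 lists by role, which together hold 93 genes. Of these, 53 are listed in the authors' deposited table, and for the other 40 either p was above 0.462 or no entry of that name was found. The lists held 26 positive and 27 negative changes, with a median of -0.05 (log2 change, authors' deposited table), against a median of 0.05 and 51% positive over all listed entries. Besides the 3 genes, 1 of 50 listed genes passed in the authors' deposited table, close to the share over all entries. An unadjusted p under 0.05 was found for 11 of these 50, 22%, against 19.9% of all entries in the authors' deposited table. With the 3 chosen genes set aside, the machinery thus lay near the table's own background on both counts.

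That further gene was Tnfrsf12a, which encodes FN14, the receptor of the TNF-family ligand TWEAK and a member without a death domain. It rose by 1.30 (log2), per the authors' deposited table, with a 95% interval of 0.96 to 1.64 (t = 9.03, Benjamini-Hochberg adjusted p = 0.0277). Of 14 death ligands and receptors 8 are listed, of which 7 had positive changes, with a median of 0.21 in the authors' deposited table. Over all entries 51% were positive, with a median of 0.05, and the lean in sign was not tested. Tnfrsf1a, the main TNF receptor with a death domain, had 0.87 in the authors' deposited table but missed the threshold (p = 0.00452, Benjamini-Hochberg adjusted p = 0.243). Tnfrsf10b, the mouse receptor of the death ligand TRAIL, was at 0.23, Ltb, encoding lymphotoxin beta, at 0.19, and Fas at -0.09 in the authors' deposited table. The ligand genes Fasl, Tnf, Lta and Tnfsf12, which encodes TWEAK itself, are not listed.

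Downstream of the receptors, none of 8 listed members of the caspase-8 complex and of necroptosis passed in the authors' deposited table, and 2 had an unadjusted p under 0.05, near the 19.9% over all entries. These were at negative values: Mlkl, the membrane-permeabilising effector of necroptosis, was at -0.66 (p = 0.00706) and Ripk1, its upstream kinase, at -0.39 (p = 0.0353) in the authors' deposited table. Rnf31, encoding the ligase HOIP, was at 0.30 and Tnfaip3, encoding the ubiquitin editor A20, at -0.29 in the authors' deposited table, with p-values of 0.102 and 0.178. Fadd, Tradd and Ripk3 are not listed. Cflar, the inhibitor of caspase-8, singled out after its values were seen, has a pair of entries that disagree in the authors' deposited table. Under its own name the authors' deposited table has it at -0.05 with a dim mean level of 4.82, and under the older clone name 2310024N18RIK at 0.34 with a mean level of 6.21 (p = 0.0507). Neither entry passed, and the sign for this inhibitor depends on which entry is read.

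Among 7 listed caspases Casp8 rose, Casp2 fell and the other 5 missed the threshold, with a median of -0.19 (log2 change, authors' deposited table). Casp6, an executioner caspase, was at -0.33 (p = 0.0276), and Casp14, the caspase of cornifying keratinocytes, at 0.51 (p = 0.046) in the authors' deposited table. Casp9, the initiator of the mitochondrial route, was at -0.19 and the inflammatory Casp1 at -0.29 in the authors' deposited table, with p-values of 0.0642 and 0.183. For the PIDDosome only Casp2 itself can be described, since Pidd1 and Cradd are not listed.

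Of 6 listed survival members of the BCL-2 family, Bcl2l1 rose and the other 5 missed the threshold, per the authors' deposited table. These 5 had log2 changes from -0.32 for Bcl2a1b to 0.08 for Bcl2l10, each with an unadjusted p above 0.05 in the authors' deposited table. Bcl2a1d was at -0.22 and Bcl2 at -0.07 there, and Bcl2 had the same change under an older clone name. The copies Bcl2a1b and Bcl2a1d are so alike that a probe may read both, and Mcl1 is not listed. Among the pore formers, Bak1 was at 0.19 and Bok at -0.28 in the authors' deposited table, neither past the test, and Bax is not listed. The BH3-only genes, whose products trigger the pore formers or neutralise BCL-XL, had 5 of 6 positive changes and none past the test in the authors' deposited table. The nearest was Bid, the substrate through which caspase-8 reaches mitochondria, at 0.27 (p = 0.0091), followed by Pmaip1, encoding NOXA, at 0.33 (p = 0.0366), and Bbc3, encoding PUMA, at -0.14 (p = 0.039) in the authors' deposited table. Bmf, another BH3-only gene, was at 0.19 in the authors' deposited table (p = 0.123).

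The inhibitors of apoptosis and their antagonists had no member past the test among 6 listed, near the 1.16% over all entries. Their changes lay between -0.23 and 0.09 in the authors' deposited table. Birc2, which encodes the ubiquitin ligase cIAP1 of TNF receptor complexes, was at -0.23 (p = 0.0174), and at -0.17 under an older clone name, in the authors' deposited table. Naip2 was at 0.09, the mitochondrial protease gene Htra2 at -0.10 and Birc6 at -0.06 there, with p-values of 0.224, 0.272 and 0.287. The apoptosome and execution genes had 4 of 5 negative changes and none past the test in the authors' deposited table. Over all entries 51% were positive and 1.16% passed. Cycs, encoding cytochrome c, was at -0.38 (p = 0.00623), Dffa, the inhibitor of the apoptotic nuclease, at 0.09 (p = 0.187), and Aifm1, encoding a mitochondrial flavoprotein that can be released in cell death, at -0.11 (p = 0.218), per the authors' deposited table. Of 13 known upstream regulators of Bcl2l1, 6 are listed, none had an unadjusted p under 0.05, and the median was -0.17 in the authors' deposited table. Khdrbs1, encoding the splicing regulator SAM68, was at 0.35, the ETS factor gene Ets2 at 0.23, Nfkb1 at -0.18 and Jak2 at -0.19 there. The transcription factor genes Stat3, Stat5a, Rela and Gata1 are not listed.

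**Figure D3:**
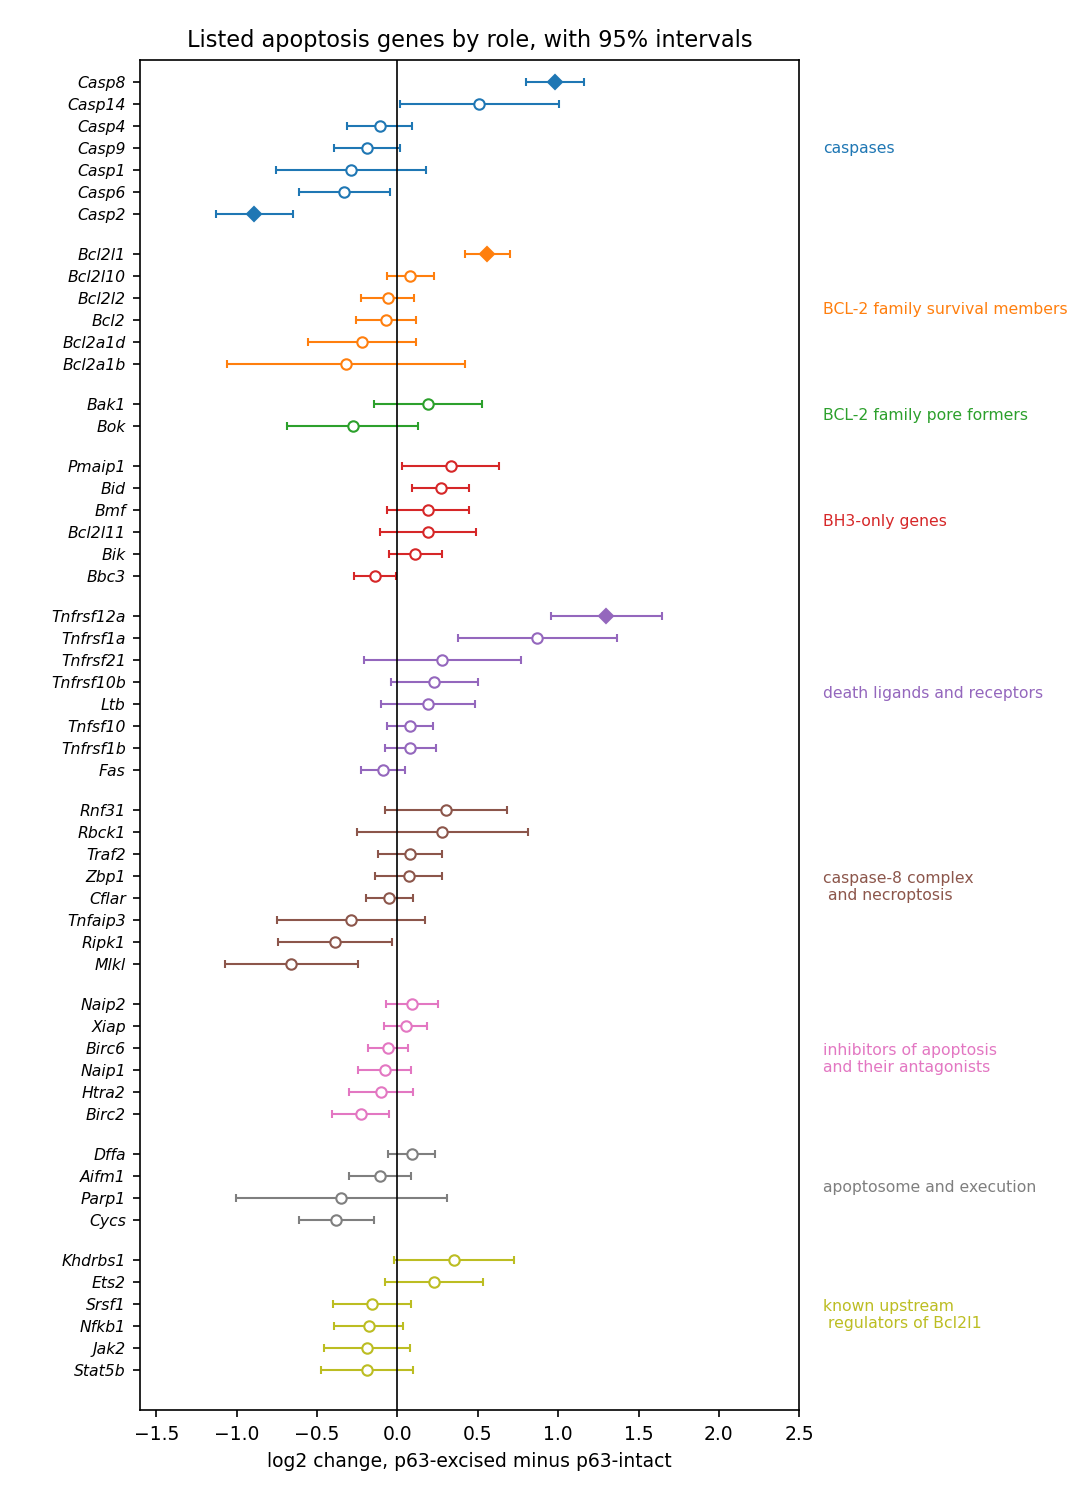
Log2 changes, p63-excised minus p63-intact, of the 53 apoptosis genes listed in the authors' deposited table, with derived 95% intervals and grouped by role; a gene in several lists is drawn once. Filled diamonds passed the adjusted threshold and open circles did not: Casp8 at 0.98, Bcl2l1 at 0.56 and Tnfrsf12a at 1.30 stand right of 0, and Casp2 at -0.89 stands left of it.

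Genes beside the 3 on the chromosome were read from RefSeq, as the nearest 3 protein-coding genes on each side. Of these 18 neighbours 11 are listed in the authors' deposited table, none passed, and 2 had an unadjusted p under 0.05, near the 19.9% of all entries with such a p. Those were Tmem139, next to Casp2, at 0.49 (p = 0.0181) and Foxs1, the third gene beyond Bcl2l1, at -0.21 (p = 0.0191) in the authors' deposited table. Cflar lies next to Casp8, and Stradb and Flacc1 near it were at 0.08 and 0.05 in the authors' deposited table. The mitosis gene Tpx2, next to Bcl2l1, was at -0.17 in the authors' deposited table (p = 0.206).

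**Figure D4:**
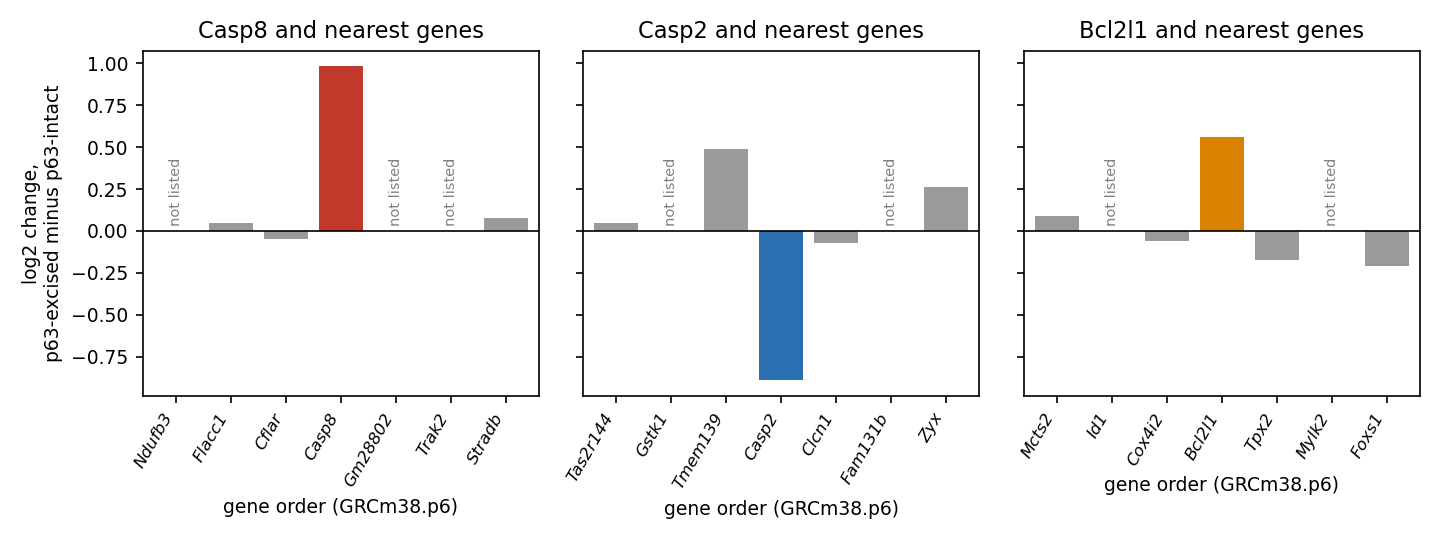
Log2 changes, p63-excised minus p63-intact, of Casp8, Casp2 and Bcl2l1 (coloured bars) and of the nearest 3 protein-coding genes on each side (grey bars), in gene order along the chromosome. Genes without an entry are marked as not listed, and the highest grey bar is Tmem139 at 0.49.

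Whole tumours hold other cells that express these genes. Of the listed markers of cells other than keratinocytes, only Prf1 passed the adjusted test in the authors' deposited table. Of 8 skeletal muscle markers all had positive changes there, from 0.07 for Myh4 to 1.60 for Acta1, with 4 at an unadjusted p under 0.05 and none past the adjusted test, against 51% positive and 19.9% under 0.05 over all entries. Of 8 erythroid markers 7 are listed, 5 of them negative, with the globin genes Hbb-b1 at -2.32 (p = 0.011) and Hba-a1 at -2.13 (p = 0.0327) in the authors' deposited table. Macrophage markers had 4 of 6 negative changes in the authors' deposited table, none past the adjusted test. Lyz2 was at -1.73 (unadjusted p = 0.00627, Benjamini-Hochberg adjusted p = 0.281), with a second entry of it at -0.31. Adgre1 was at -0.27 (unadjusted p = 0.0319), while Cd68 at 0.47 and Cd14 at 0.42 were positive. All 3 listed fibroblast markers were negative there, from -0.90 for Dcn to -0.29 for Col3a1, and endothelial markers ran from -0.42 to 0.28. Neutrophil markers had 3 positive and 3 negative changes in the authors' deposited table. S100a8 was at 0.53 there (unadjusted p = 0.262), and the others lay between -0.10 for Ngp and 0.17 for Cxcr2. Of 10 T and NK cell markers 4 are listed: Cd3e, Nkg7 and Ncr1 lay at dim mean levels of 4.88 to 4.90, and Prf1 fell by 3.36 in the authors' deposited table (Benjamini-Hochberg adjusted p = 0.042). Of 7 listed keratinocyte markers, the hemidesmosomal gene Col17a1 fell by 0.77 (Benjamini-Hochberg adjusted p = 0.0487) and the others missed the threshold, per the authors' deposited table. The part of these cells in the changes of Casp8, Casp2 and Bcl2l1 was not tested.

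On the arrays themselves, limma called 604 of 13727 probes (4.4%) at a Benjamini-Hochberg adjusted p of 0.05, of which 319 were higher and 285 lower in p63-excised tumours. Scaling to a common median gave 50, with 14 higher and 36 lower, and leaving out 1 array gave 654 without p63-excised 2 and from 216 to 362 without each of the others. Between 11964 and 14520 probes were detected on p63-excised arrays, against 13757 to 16096 on p63-intact arrays. Correlations between arrays ran from 0.898 to 0.981. Probes of the 3 genes are not identified among these, so the counts describe the arrays and not the genes.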

How the data were processed

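RNA of 6 whole tumours, 3 p63-excised and 3 p63-intact, was measured on Illumina bead arrays, per the labels' protocols. Per the file headers, the authors deposited 45281 probes with an intensity and a detection p-value per array; the array means are equal, so some scaling preceded deposit. They also deposited a value table of log2 intensities and a table of 1 comparison. Per the file headers, the latter holds log2 changes, signed folds, t and log-odds scores and unadjusted p-values per gene name. Its normalization and its route from probes to names are not stated in the sources used here. R 2.12.0 is named in the submitters' processing notes.

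Benjamini-Hochberg adjustment of the deposited p-values assumed 45281 tests, which is an upper bound. Names were matched to current symbols and then to older symbols owned by a single gene (RefSeq, GRCm38.p6); all 3 members matched directly. The members and lists were chosen with earlier results of these data known. From each list, genes past the threshold and up to 4 others with the smallest p were named. A gene with several entries counts by the entry under its own symbol.

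Probes were background-corrected and quantile-normalized with limma's neqc (offset 16), kept if detected (p under 0.05) on at least 3 arrays, and compared with lmFit and eBayes, two-sided. This fit was tested on simulated data for p63-excised against p63-intact (13727 independent normal probes, 200 changed), where it recovered 52% of 2-fold and 91% of 4-fold changes with 9 false calls. Equal replicate numbers deviated together for numbers 1 and 2 (correlations 0.339 and 0.384) but not for 3 (-0.0635), so the numbers were not taken as pairs. R 4.3.3, limma 3.58.1, Python 3.11.15, pandas 2.3.3, numpy 2.4.6 and scipy 1.17.1 were used. All value columns of the files were used. Some list members are not reported here.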

Additional observations from a re-analysis of the deposited data

How the results depend on the processing

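The count of entries past the threshold in the authors' deposited table, 190, became 486 with only the 16381 listed entries counted as tests, and 91 if a change of at least 2-fold was also required, none of them Casp8, Casp2 or Bcl2l1. Benjamini-Hochberg adjusted p-values of the 3 genes were read in the first of these and with entries under 5.5 in mean log2 level dropped. They ranged from 0.00342 to 0.00986 for Casp8, 0.00837 to 0.0244 for Bcl2l1 and 0.0106 to 0.0324 for Casp2. Fewer tests can only lower an adjusted p, and dropping dim entries left the number of tests at 45281. The genes were also chosen on these p-values, so values under 0.05 here are no evidence of stability. For probes, in place of 604, 203 passed with dim probes kept, 344 with no correction of background, 380 when the authors' log2 value table was used and 396 under normexp (offset 50). Scaling the arrays to a common median left 50 probes, 14 higher and 36 lower against 319 and 285, and put the median log2 change over tested probes at -0.22, against -0.03. The values of the 3 genes under this scaling were not analysed here, and a median over all probes does not give the move at any single gene. Leaving out each array gave 216 to 654 probes: 362, 654 and 249 without p63-excised 1, 2 and 3, and 306, 216 and 216 without p63-intact 1, 2 and 3. A replicate block gave 1324 probes, but no label says that the numbers pair tumours, and samples numbered 3 did not correlate best with each other. The causes of these differences were not tested. No array could be left out for the named genes, since their values are given only as a comparison. Entries near the lowest listed level of 4.62 limit what can be seen of dim genes.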

Other observations

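Entries next to each gene in order of t in the authors' deposited table show which changes had a similar ratio of change to error. A similar t does not mean a similar error. Next to Casp8 (t = 13.15) stood Klk9, an epidermal kallikrein peptidase gene, with a log2 change of 1.99 (t = 13.58) and Krt8, a simple epithelial keratin gene, with 4.04 (t = 13.05), followed by Prl2c4 at 3.01 and Wfdc2 at 1.82 in the authors' deposited table. Those changes were larger than that of Casp8 at a similar t. Around Bcl2l1 (t = 9.61) stood Plac1, a placental gene, at 2.01, an unnamed transcript, SCL0001379.1_70, at 1.26, Rab15, a vesicle traffic GTPase gene, at 0.58, and Acadl, a gene of fatty acid oxidation, at 0.50 in the authors' deposited table. Around Casp2 (t = -8.77) stood Il13ra1, a receptor chain for interleukin-13, at -0.49, and the uncharacterised entries LOC100039607, E030040G24RIK and C730009F21RIK at -0.68, -1.41 and -0.63 in the authors' deposited table. These entries share only a place in the order of t.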
